A study of Mus musculus with 8 samples.

Results

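The BCL2 family controls whether a cell opens the outer membrane of its mitochondria and dies by apoptosis, and 10 of its genes were read here in the mouse striatum with and without the kinase gene Dclk3. They were taken from the deposited table by symbol: Bcl2, Bcl2l1 and Mcl1, whose proteins protect cells, Bax and Bak1, whose proteins form the pores, and Bcl2l11, Bbc3, Pmaip1, Bid and Bad, which encode the BH3-only proteins that start the process. All 10 were found among the 31417 genes of the table, and all 10 were among the 16511 genes with enough counts to be tested. RNA sequencing was done on poly(A) RNA of striatum from mice aged 12 months, 4 labelled WT and 4 labelled Dclk3 knock out, with a single striatum per library. The sources used here do not give sex, strain or how the Dclk3 allele was disrupted. The comparison asks what loss of Dclk3 changes in striatal gene expression.

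In healthy cells Bax and Bak1 proteins are held in check by the guardians BCL2, BCL-XL (the main product of Bcl2l1) and MCL1, which bind them in a surface groove. BH3-only proteins appear or are activated when a cell is stressed and fill that groove or activate BAX and BAK directly, after which cytochrome c leaves the mitochondria and caspases are switched on. Neurons depend on these proteins through life, with BCL-XL and MCL1 known as survival factors of mature neurons. Much of the control acts on the proteins, by cleavage, phosphorylation and degradation, and on splicing, neither of which gene-level read counts can show.

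No difference between the genotypes passed the test for any of the 10 genes. At an adjusted p under 0.05 (quasi-likelihood test of edgeR, with Benjamini-Hochberg adjustment over all genes tested), 0 of the 10 passed, beside 0.00606% of all genes, which is Dclk3 alone. An unadjusted p under 0.05 was reached by 0 of 10 members and by 3.76% of all genes. The knockout and wild-type libraries overlapped for every member, so 0 of 10 were apart, while 1.93% of all genes were, 0.86% with the knockout below and 1.07% with it above. By direction of the fold change, 4 members lay above 0 and 6 below, and of all genes 49.5% lay above and 50.5% below. The median log2 fold change of the 10, knockout over wild type, was -0.019, beside -0.0011 for all genes tested, and the median size of the change in either direction was 0.053 beside 0.070. Since expression was read in bulk tissue, fewer cells of a type and less RNA per cell cannot be told apart in any value below.

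The intervals bound what these 8 libraries leave possible for each gene. For 10 of 10 members, and for 77.8% of all genes, the whole 95% interval stayed inside 1.5-fold up or down. Bcl2l1 was the most tightly bounded, at 1.11-fold in either direction, followed by Bad at 1.15-fold, Mcl1 at 1.16-fold, Bax at 1.17-fold, Bid at 1.18-fold and Bak1 at 1.19-fold. Bcl2 was bounded at 1.28-fold and Bcl2l11 at 1.32-fold. The widest bounds belonged to the least counted genes, Pmaip1 at 1.38-fold with 55 to 96 counts per library and Bbc3 at 1.42-fold with 82 to 154 counts. Changes inside these bounds remain possible. The bounds are those of the fit over all 8 libraries, and intervals of fits that leave out libraries are not given here.

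**Figure D1:**
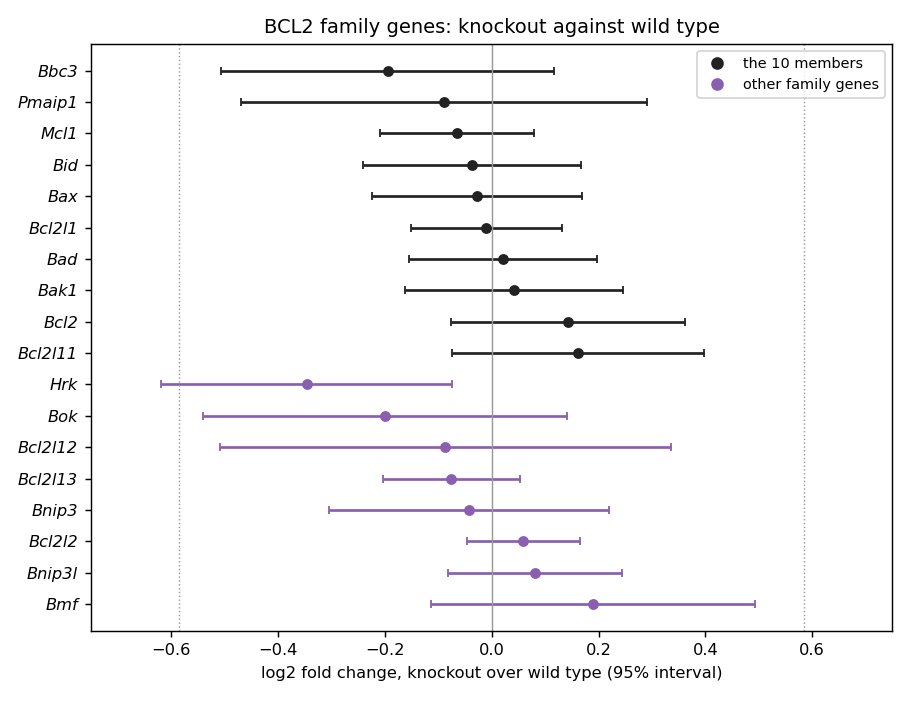
Log2 fold change, knockout over wild type, on the horizontal axis for the 10 members (black) and the 8 other BCL2 family genes with enough counts (purple). Bars are 95% intervals and dotted lines mark 1.5-fold. Every black interval crosses 0 and stays inside the dotted lines, and the Hrk interval, from -0.62 to -0.07, is the one in the plot that does not cross 0.

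The libraries themselves carried the labelled difference. Dclk3 was at 80.9 to 116.7 CPM (library-scaled counts, TMM method) in wild type and at 19.6 to 27.7 CPM in the knockout. Its log2 fold change was -2.06 (SE 0.14) with an adjusted p of 0.000773 (edgeR quasi-likelihood). Permuting the genotypes in all 70 ways gave an exact two-sided p = 0.0286, the smallest this design can give. Libraries held 24441242 to 37145559 counts. All 10 spiny neuron markers, the genes that define the projection neurons of the striatum, were measured, with summed levels of 4412 to 5244 CPM in wild type and 4377 to 5005 CPM in the knockout. Wild-type replicate 4 and knockout replicate 4 lay at the ends of the first principal component, and choroid plexus markers summed to 2907 CPM in wild-type replicate 4 and to 38.6 to 239.2 CPM in the others. Without replicate 4 of both genotypes, a setting chosen after seeing the data, 0 of 10 members passed the adjusted threshold. Of the genes in the 11 cell-type marker lists, 0 passed the adjusted threshold. Several lists leaned to the knockout: above 0 were 7 of 8 astrocyte, 8 of 8 oligodendrocyte, 8 of 8 microglia, 7 of 8 endothelial, 5 of 5 blood and 8 of 8 thalamic markers, with an unadjusted p under 0.05 for 4, 2, 0, 1, 3 and 0 of them. Below 0 were 6 of 6 ependymal, 6 of 6 choroid plexus and 6 of 7 cortical markers. An unadjusted p under 0.05 was reached by 1, 0 and 0 of them, and by 3.76% of all genes. The part of the marker genes in the members' values was not tested. The labels say that a library came from a single striatum but not from which animal, so p-values measure the spread between these samples.

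Ranked per length, the guardians Bcl2l1 and Mcl1 were the most abundant of the 10. RPKM (CPM per kilobase of exon) is the scale on which genes can be set beside each other, and the means over the 8 libraries were 24.5 ± 1.5 (SD, n = 8) for Bcl2l1 and 20.8 ± 1.37 for Mcl1. Bax followed at 11.9 ± 1.06 RPKM and Bad at 9.06 ± 0.69 RPKM. Bak1 (4.11 ± 0.30 RPKM), Bcl2 (3.45 ± 0.42 RPKM), Bid (2.52 ± 0.17 RPKM) and Bbc3 (1.87 ± 0.26 RPKM) came next, and Bcl2l11 (0.895 ± 0.095 RPKM) and Pmaip1 (0.868 ± 0.131 RPKM) were lowest. For comparison, the median of all tested genes with a length was 4.22 RPKM, so 4 members stood above it and 6 below. Neighbours whose libraries overlapped in range were Bcl2l1 and Mcl1, Bak1 and Bcl2, Bid and Bbc3, and Bcl2l11 and Pmaip1; the ranges of the other neighbours did not overlap. With the longest annotated transcript as the length, Bcl2l1 stood at 43.7 RPKM and Bcl2 (4.39 RPKM) moved ahead of Bak1 (4.15 RPKM), while the places of the other 8 members stayed as they were.

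**Figure D2:**
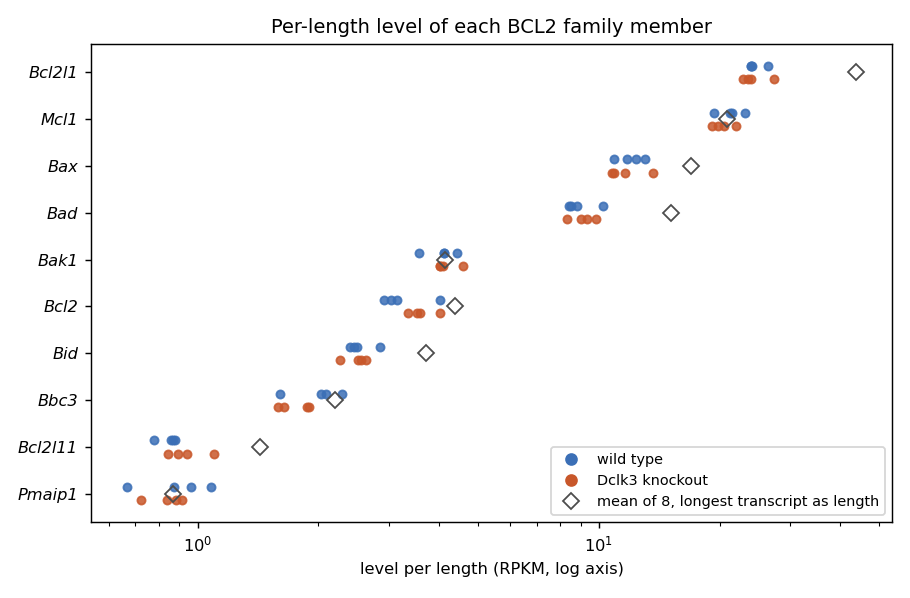
Level per length of each member in RPKM on a log axis, with 1 point per library (blue wild type, orange knockout) and the open diamond for the mean when the longest transcript is the length. Bcl2l1 and Mcl1 sit at 19.2 to 27.3 RPKM, and Bcl2l11 and Pmaip1 at 0.668 to 1.10 RPKM.

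Summed by role, the guardians made up most of this RNA in both genotypes. Bcl2, Bcl2l1 and Mcl1 together held 61.0% ± 1.93 (SD, n = 4) of the summed RPKM of the 10 genes in wild type and 60.9% ± 2.00 in the knockout. The pore formers held 19.95% ± 0.74 and 20.1% ± 1.43, and the BH3-only genes 19.0% ± 1.33 and 19.1% ± 0.78. The guardian share was lowest in knockout replicate 3 (58.7%) and highest in wild-type replicate 2 (63.5%), so that both genotypes spanned nearly the same range. The Bcl2 to Bax ratio of RPKM, often quoted as an index of how protected a tissue is, had the values 0.326, 0.258, 0.224 and 0.287 in wild type and 0.332, 0.307, 0.257 and 0.347 in the knockout, by replicate number. These ranges overlap, with wild-type replicate 1 above 2 of the 4 knockout libraries.

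The promoters of Bcl2 and Bax, the pair behind the ratio above, differ in their make-up, and the 250 bases before each start site are shown from RefSeq (GRCm38.p6), 5′ to 3′. Capitals mark the GC box GGGCGG, the binding motif of SP factors, on either strand, and, in Bax, also the match to the p53 decamer, the unit that is repeated in p53 response elements. Bcl2 (chr1:106714291-106714540, minus strand) holds 7 GC boxes, none of the p53 decamer and 74.8% G and C. Bax (chr7:45466899-45467148, minus strand) holds 2 GC boxes, 1 match to the p53 decamer and 54.0% G and C.
Bcl2: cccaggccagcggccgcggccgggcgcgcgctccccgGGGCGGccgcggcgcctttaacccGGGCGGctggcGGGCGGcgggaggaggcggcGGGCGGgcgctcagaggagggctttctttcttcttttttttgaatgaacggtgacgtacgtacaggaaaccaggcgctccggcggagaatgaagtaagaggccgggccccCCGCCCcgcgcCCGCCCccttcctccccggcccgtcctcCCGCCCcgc
Bax: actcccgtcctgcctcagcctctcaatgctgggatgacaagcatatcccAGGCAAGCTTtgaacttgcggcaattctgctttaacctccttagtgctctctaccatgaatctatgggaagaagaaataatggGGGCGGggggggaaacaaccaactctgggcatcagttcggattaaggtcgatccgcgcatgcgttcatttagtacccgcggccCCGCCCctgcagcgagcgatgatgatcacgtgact

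RefSeq start windows of 300 bases, 250 before and 50 after the start, were matched by symbol for 9 of the 10 members (not Pmaip1), 15 windows in all since Bcl2l1, Bcl2l11, Bbc3 and Bad have more than 1, and 2 of the Bbc3 windows share bases. Their median content of G and C was 65.7%, ranging from 49.3% for 1 Bcl2l1 window to 78.0% for 1 Bbc3 window, beside a median of 52.7% over all 32851 windows. The median number of CpG pairs was 27, beside 7. A GC box (GGGCGG) was found in 10 of 15 windows, of 7 genes, and in 35.7% of all windows. The TATA box (TATAAA) was found in 0 of 15 and in 13.6% of all. The p53 decamer was matched in 1 of 15, the Bax window, and in 8.36% of all windows. The FoxO motif GTAAACA was found in 1 Bcl2l11 and 1 Bbc3 window and in 3.65% of all windows, and the E-box CACGTG in the Bax window and 1 Bbc3 window and in 7.15% of all. CCAAT was in 4 of 15 windows and 37.4% of all, TGACGTCA in 0 and 1.79%, and TGACTCA in 0 and 5.20%. Both strands were searched, and a match says only that the letters are there.

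Bcl2, the founding guardian of the family, was the most variable of the 3 guardians. It lies on the minus strand of chromosome 1 (106538178 to 106714274, GRCm38; ENSMUSG00000057329), and D630008O14Rik on the opposite strand covers 6.09% of its exon bases. In order of replicate number, here and below, Bcl2 measured 36.9, 27.7, 26.7 and 28.8 CPM in wild type and 32.7, 30.7, 32.2 and 36.8 CPM in the knockout. Wild-type replicate 1 stood with the highest knockout library, and the other 3 wild-type libraries lay below all 4 knockout libraries. Group means stood at 30.0 CPM ± 4.65 (SD, n = 4) and 33.1 CPM ± 2.62, a log2 fold change of 0.14 (SE 0.10, 95% interval -0.08 to 0.36) with an unadjusted p of 0.179 and an adjusted p of 0.999 (edgeR quasi-likelihood). Without wild-type replicate 1 the log2 fold change was 0.26 with an unadjusted p of 0.00673, and the adjusted p was 0.952; it was 0.09 when either wild-type replicate 3 or knockout replicate 4 was left out, 0.07 when replicate 4 of both genotypes was, and 0.06 with limma-voom and sample quality weights. The spread within genotypes was 12.0%, beside a median of 7.14% for the 2930 genes of a level within 1.5-fold of Bcl2, while counting alone gives 3.23%.

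Oligodendrocyte and microglia markers moved with the level of Bcl2 in part. All 8 oligodendrocyte markers were measured, 0 were at 0 and 8 had a log2 fold change above 0. An unadjusted p under 0.05 was reached by 2 of the 8 and by 3.76% of all genes. Past the adjusted threshold were 0 of the 8. These markers summed to 10265, 7536, 8996 and 8115 CPM in wild type, and to 10812, 9160, 9262 and 10896 CPM in the knockout. Wild-type replicate 1 was the highest wild-type library and knockout replicate 4 the highest knockout library for both Bcl2 and this sum. In knockout replicate 1 the sum was nearly as high as in knockout replicate 4, and Bcl2 was at 32.7 CPM. Microglia markers, 8 of 8 measured and 0 at 0, were likewise highest in those libraries, at 724.4, 649.4, 668.4 and 622.1 CPM in wild type and 703.0, 677.5, 662.0 and 804.1 CPM in the knockout. The part of these markers in the Bcl2 values was not tested.

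Bcl2l1, which encodes BCL-XL and, by splicing, the shorter BCL-XS of opposite effect, had a spread within genotypes of 6.60%, near the median of 6.31% for the 1889 genes of similar level. It lies on the minus strand of chromosome 2 (152780668 to 152831728; ENSMUSG00000007659) with 9 annotated transcripts, which gene-level counts do not separate. Its level was 110.1, 120.9, 110.0 and 109.7 CPM in wild type and 105.0, 107.6, 110.1 and 125.0 CPM in the knockout. Each genotype had 3 libraries within a narrow band and 1 above it, wild-type replicate 2 and knockout replicate 4. Group means stood at 112.7 CPM ± 5.46 (SD, n = 4) and 111.9 CPM ± 8.95, a log2 fold change of -0.01 (95% interval -0.15 to 0.13). Summed markers of the thalamus were highest in knockout replicate 4 (498.6 CPM) among knockouts and in wild-type replicate 2 (286.1 CPM) among wild types, with 8 of 8 markers measured and 0 at 0. Knockout replicate 1 was second highest of all for that sum (318.9 CPM) and lowest for Bcl2l1. The part of these markers in the Bcl2l1 values was not tested.

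Mcl1, a guardian whose protein turns over within a short time and whose loss kills many cell types, lies on the plus strand of chromosome 3 (95658788 to 95663176; ENSMUSG00000038612). It measured 66.1, 78.9, 73.4 and 72.7 CPM in wild type and 65.6, 70.02, 67.7 and 75.2 CPM in the knockout. The lowest libraries of the genotypes, wild-type replicate 1 and knockout replicate 1, were close together, and the highest were wild-type replicate 2 and knockout replicate 4, as for Bcl2l1. The log2 fold change was -0.06 (95% interval -0.21 to 0.08, unadjusted p = 0.349 in the edgeR quasi-likelihood test), and -0.11 to -0.023 when single libraries were left out, the ends being without wild-type replicate 1 and without wild-type replicate 2.

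**Figure D3:**
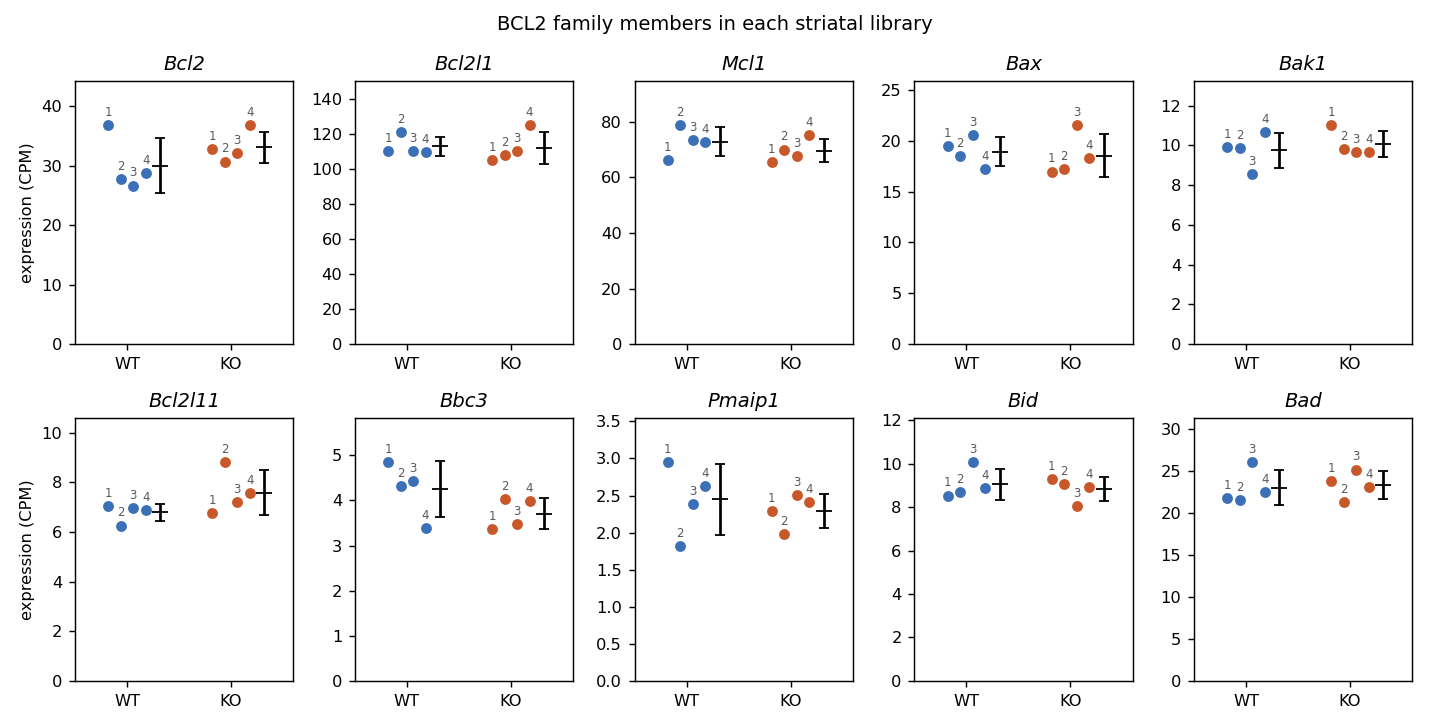
Expression in CPM (vertical axis, from 0) of each member in the 4 wild-type (blue) and 4 knockout (orange) libraries, numbered by replicate, with the mean and SD of each group as a black bar. In all 10 panels the groups overlap, and wild-type replicate 1 for Bcl2 (36.9 CPM) and knockout replicate 4 for Bcl2l1 (125.0 CPM) stand above the rest of their group.

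Of the pore formers, Bax was at about the same level in both genotypes. Bax, which waits in the cytosol and inserts into the mitochondrial membrane once activated, lies on the minus strand of chromosome 7 (45461697 to 45466898; ENSMUSG00000003873). It measured 19.4, 18.5, 20.5 and 17.2 CPM in wild type and 17.0, 17.2, 21.6 and 18.3 CPM in the knockout. Knockout replicate 3 was the highest library and knockout replicate 1 the lowest, so the knockout group held both ends. Group means stood at 18.9 CPM ± 1.41 (SD, n = 4) and 18.5 CPM ± 2.11, a log2 fold change of -0.03 (95% interval -0.22 to 0.17). The gene model Gm45808, on the same strand, covers 12.2% of the Bax exon bases and is not analysed here.

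Bak1, the pore former that resides in the mitochondrial membrane, lies on the minus strand of chromosome 17 (27019810 to 27029009; ENSMUSG00000057789) within the span of Ggnbp1 on the opposite strand, which covers 18.2% of its exon bases. It measured 9.89, 9.88, 8.56 and 10.7 CPM in wild type and 11.03, 9.84, 9.66 and 9.67 CPM in the knockout. Knockout replicate 1 stood above the other 3 knockout libraries, which were nearly equal. The log2 fold change was 0.04 (95% interval -0.16 to 0.25). The library kit keeps the strand, but whether the counting used it is not stated, so reads of Ggnbp1 could be among those counted for Bak1.

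The 3 BH3-only genes that cells induce by transcription, Bcl2l11, Bbc3 and Pmaip1, were the lowest per length together with Bid. Bcl2l11 encodes BIM, a target of FoxO factors that drives the death of neurons deprived of trophic support. The gene lies on chromosome 2, plus strand (128126038 to 128162547; ENSMUSG00000027381). It measured 7.04, 6.26, 6.96 and 6.88 CPM in wild type and 6.77, 8.83, 7.19 and 7.56 CPM in the knockout. Knockout replicate 2 was the highest, and 3 of 4 knockouts exceeded the highest wild type. The log2 fold change came to 0.16 (SE 0.11, 95% interval -0.07 to 0.40), the largest of the 10 above 0, with an unadjusted p of 0.160 (edgeR quasi-likelihood), the smallest of the 10. Without knockout replicate 2 it was 0.081 with an unadjusted p of 0.478.

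Bbc3 encodes PUMA, a BH3-only protein that is a main target of p53. The gene lies on chromosome 7, plus strand (16308393 to 16318205; ENSMUSG00000002083). It measured 4.86, 4.32, 4.43 and 3.40 CPM in wild type and 3.36, 4.02, 3.48 and 3.98 CPM in the knockout. Wild-type replicates 1 to 3 lay above all knockout libraries, and wild-type replicate 4 lay among the knockouts. Group means stood at 4.25 CPM ± 0.62 (SD, n = 4) and 3.71 CPM ± 0.34, a log2 fold change of -0.19 (SE 0.14, 95% interval -0.51 to 0.12, unadjusted p = 0.199 in the edgeR quasi-likelihood test). Without replicate 4 of both genotypes the log2 fold change was -0.32 with an unadjusted p of 0.0449 and an adjusted p of 0.590, and without wild-type replicate 1 it was -0.13 with an unadjusted p of 0.432. Counting alone gives a spread of 9.06% at this level, beside 12.5% observed within genotypes.

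Pmaip1 encodes NOXA, a small BH3-only protein that binds MCL1 with preference (ENSMUSG00000024521). It measured 2.96, 1.82, 2.39 and 2.63 CPM in wild type and 2.30, 1.97, 2.50 and 2.41 CPM in the knockout. All 4 knockout libraries lay inside the wild-type range. The log2 fold change was -0.09 (95% interval -0.47 to 0.29), and the spread within genotypes of 15.8% compares with 11.7% from counting alone.

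Bid and Bad, the BH3-only genes whose proteins are held ready and switched on after translation, were also level. Bid, which caspase-8 cleaves to carry a death receptor signal to mitochondria, lies on the minus strand of chromosome 6 (120891930 to 120916853; ENSMUSG00000004446). It measured 8.53, 8.70, 10.1 and 8.88 CPM in wild type and 9.31, 9.05, 8.05 and 8.91 CPM in the knockout. Wild-type replicate 3 was the highest library and knockout replicate 3 the lowest, and the log2 fold change was -0.04 (95% interval -0.24 to 0.17). Bcl2l13, another BCL2 family gene, lies on the opposite strand and covers 17.7% of the Bid exon bases. Its mean was 63.7 CPM, beside 8.94 CPM for Bid. As for Bak1, reads of the neighbour could be among those counted for Bid.

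Bad, which survival kinases such as AKT phosphorylate so that 14-3-3 proteins hold it in the cytosol, lies on the plus strand of chromosome 19 (6941861 to 6951899; ENSMUSG00000024959). It measured 21.8, 21.6, 26.1 and 22.5 CPM in wild type and 23.9, 21.3, 25.2 and 23.1 CPM in the knockout. Replicate 3 was the highest library in both genotypes, and the log2 fold change was 0.02 (95% interval -0.15 to 0.20). Gpr137 on the opposite strand covers 20.5% of the Bad exon bases, so its reads could likewise be among those counted for Bad.

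No pair of members was correlated past the test over the 8 libraries. Among the 45 pairs of members, 19 had a Pearson r above 0 and 26 below, with a median of -0.080. The highest was between Bcl2l1 and Mcl1, with r = 0.77 (exact permutation p = 0.0207, adjusted 0.903 over 45 pairs) and Spearman rho = 0.60 (exact permutation p = 0.132, adjusted 0.945), n = 8. It was 0.79 with the genotype means removed and 0.45 without knockout replicate 4 and wild-type replicate 2, the libraries farthest from the Bcl2l1 median. Leaving these out narrows the range of values, so the lower r cannot show that the correlation rests on them. The lowest was between Bax and Bak1, with r = -0.71 (exact permutation p = 0.0452, adjusted 0.903) and rho = -0.76 (exact permutation p = 0.0368, adjusted 0.945), and -0.65 without knockout replicate 3 and wild-type replicate 3. By an adjusted p of 0.05, 0 of the 45 pairs passed with either measure, and 2 had an unadjusted Pearson p under 0.05.

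Genes with the most similar pattern to the 3 members of highest CPM were named by Pearson r of log2 CPM over the 8 libraries. The search covered 14476 genes, with predicted Gm and Rik genes left out, and serves as a description of these libraries. For Bcl2l1 these were Ahnak2 (r = 0.98, rho = 0.93) and Mafk (r = 0.95, rho = 0.93), with r = 0.91 and 0.96 without the 2 libraries farthest from the Bcl2l1 median. For Mcl1 they were Pcbp3 (r = 0.95, rho = 0.93) and Dyrk3 (r = 0.95, rho = 0.98), with 0.92 and 0.91 so. For Bcl2 they were D7Ertd443e (r = 0.96, rho = 0.95) and Plod1 (r = 0.96, rho = 0.90), with 0.93 and 0.95 so. An r above 0.9 was reached by 33, 26 and 47 genes. Such counts for other genes are not given, so these numbers cannot be called high or low. The genes named were picked as the highest of those searched, so no test is given.

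The other genes of the family include several that were more abundant than most of the 10. Of 15 listed, 8 had enough counts, 3 above 0 and 5 below, with a median log2 fold change of -0.059. Past the adjusted threshold were 0 of the 8. An unadjusted p under 0.05 was reached by 1 of the 8 and by 3.76% of all genes. Bcl2l2, which encodes the guardian BCL-W, stood at 31.7 RPKM ± 0.89 (SD, n = 8), above the mean of Bcl2l1; with the longest transcript as the length it was below, at 37.1 against 43.7 RPKM. Bnip3l and Bnip3, whose proteins act in the clearance of mitochondria, stood at 30.0 and 17.3 RPKM, and Bok, a pore former related to Bax, at 14.8 RPKM. Bcl2l15 (5 to 11 counts per library), Bik (1 to 8), Bcl2a1a (1 to 5), Bcl2a1b (1 to 7) and Bcl2l10 (0 to 2) were below the filter, and Bcl2a1d had 0 counts in all libraries. The Bcl2a1 genes are near-identical copies among which reads can be divided. Bcl2l14 was not analysed here.

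Hrk, a BH3-only gene of neurons also known as Harakiri, had the log2 fold change farthest from 0 among the 18 family genes measured. Its mean of 12.6 RPKM ± 2.43 (SD, n = 8) was above that of each of the 5 BH3-only members, though its lowest library (9.83 RPKM) was below the highest of Bad (10.2 RPKM). With the longest transcript as the length, the Hrk mean was below that of Bad, at 13.3 against 15.1 RPKM. It measured 74.7, 100.3, 77.8 and 68.2 CPM in wild type and 59.4, 73.0, 55.8 and 64.4 CPM in the knockout. Wild-type replicate 2 was far the highest, and knockout replicate 2, the highest of the knockouts, exceeded wild-type replicate 4 alone. The log2 fold change came to -0.35 (SE 0.12, 95% interval -0.62 to -0.07) with an unadjusted p of 0.0179 and an adjusted p of 0.999 (edgeR quasi-likelihood), so Hrk did not pass. An unadjusted p under 0.05 was reached in 15 of 16 alternative settings, the exception being without knockout replicate 3 (0.0513, edgeR quasi-likelihood). The lowest adjusted p of the 16 was 0.400. These settings refit the same libraries or most of them, so the count does not repeat the result independently. Without wild-type replicate 2 the log2 fold change was -0.22. Cortical markers, 7 of 7 measured and 0 at 0, summed to 999.6, 1460, 1188 and 1277 CPM in wild type and 906.1, 1225, 1132 and 751.7 CPM in the knockout, with replicate 2 the highest of each genotype as for Hrk. The other libraries followed in part only. Wild-type replicate 4 and knockout replicate 3 came next after replicate 2 for the cortical sum and were lowest of their genotype for Hrk. Knockout replicate 4 was lowest for the cortical sum but not for Hrk. Wild-type replicate 3 was above wild-type replicate 1 for both. The part of cortical tissue in the Hrk values was not tested.

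Bcl2l2 was the 1 gene of the 8 in this group whose libraries did not overlap, beside 1.93% of all genes. It measured 140.5, 138.6, 135.0 and 140.9 CPM in wild type and 147.9, 145.3, 143.2 and 141.8 CPM in the knockout. The difference was small, a log2 fold change of 0.06 (95% interval -0.05 to 0.16, unadjusted p = 0.249 in the edgeR quasi-likelihood test). The gene model Gm20521, on the same strand, covers 13.3% of its exon bases and is not analysed here. For Bmf, a BH3-only gene, the log2 fold change was 0.19, and 0.11 without knockout replicate 2. For Bok it was -0.20, and -0.021 without wild-type replicate 2, whose 39.3 CPM stood above the 22.7 to 29.3 CPM of the other libraries.

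**Figure D4:**
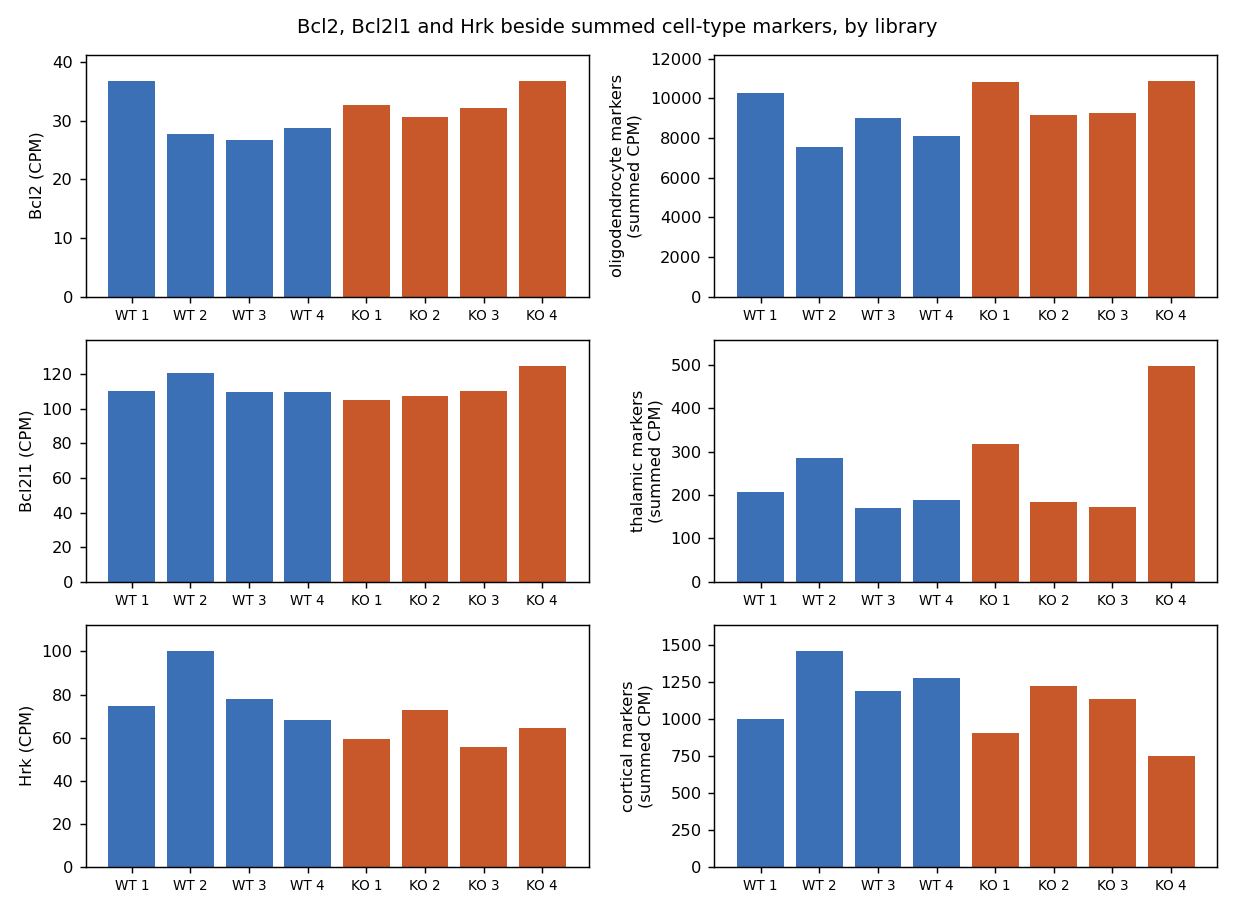
Bars from 0 give each library, blue wild type and orange knockout. On the left are Bcl2, Bcl2l1 and Hrk in CPM, and on the right the summed CPM of oligodendrocyte, thalamic and cortical markers. These marker lists were picked from 11, a different one for each gene, and the matches were not tested. Bcl2 and the oligodendrocyte sum are both high in wild-type replicate 1 and knockout replicate 4, Bcl2l1 and the thalamic sum are both highest in knockout replicate 4, and Hrk and the cortical sum are both highest in wild-type replicate 2.

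Downstream of the mitochondria, the apoptosome and caspase genes were likewise without a call. All 13 listed genes were measured, with 8 above 0, 5 below, a median log2 fold change of 0.017, and 0 past the adjusted threshold. Diablo, which releases caspases from their inhibitors, had a log2 fold change of 0.13, and Cycs, the gene of cytochrome c, one of 0.15. Diablo shares 21.5% of its exon bases with B3gnt4 on the opposite strand. Among the 8 measured of 9 inhibitors of apoptosis, 4 lay above 0 and 4 below, with a median of 0.0041 and 0 past the threshold. Naip2, Birc6 and Naip6 had log2 fold changes of 0.26, -0.04 and 0.14, and the Naip genes are close copies whose reads the counting could divide. Naip1, with 3 to 8 counts per library, was below the filter.

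Death receptor genes, the outer route that reaches the family through Bid, had 10 of 13 measured, 5 above 0, 5 below, a median of 0.017 and 0 past the threshold. Tnfsf10, the ligand TRAIL, had a log2 fold change of 0.25, Tradd, an adaptor, -0.15, and Fas, a receptor, 0.27 at 1.28 CPM. Tnfsf10 was at 0.13 without knockout replicate 1 and at 0.41 without knockout replicate 4. Fas was at 0.049 without knockout replicate 4, at 0.12 without wild-type replicate 1 and at 0.44 without knockout replicate 2. Fasl (0 to 6 counts), Tnf (1 to 6) and Ripk3 (3 to 10) were below the filter. The 9 mitochondrial partners, such as the channels and carriers of the membrane, had 3 above 0 and 6 below, a median of -0.019 and 0 past the threshold, with Hk1 (hexokinase 1) at -0.12, Vdac1 at -0.06 and Hk2 at -0.09. Leaving out single libraries gave -0.17 to -0.068 for Hk1, -0.076 to -0.036 for Vdac1 and -0.14 to -0.012 for Hk2.

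The regulators upstream were read last. Trp53, the gene of p53, and targets of p53, 16 of 16 measured, had 6 above 0 and 10 below, a median of -0.014 and 0 past the threshold, with the cell cycle inhibitor gene Cdkn1a at -0.20, the stress gene Gadd45a at -0.24 and Perp at -0.28. Leaving out single libraries gave -0.25 to -0.085 for Cdkn1a, -0.32 to -0.19 for Gadd45a and -0.38 to -0.045 for Perp. The value nearest 0 came without wild-type replicate 2 for Cdkn1a and without wild-type replicate 4 for Perp. Gadd45a shares 19.1% of its exon bases with E230016M11Rik on the opposite strand. Kinases, factors and ligases that act on BCL2 proteins, 20 of 20 measured, had 5 above 0 and 15 below, a median of -0.023 and 0 past the threshold. Among them Jun, a transcription factor gene of the stress response, had -0.26, Akt2, a survival kinase, 0.13, and Usp9x, a deubiquitinase that stabilises MCL1, -0.14. Without wild-type replicate 2 these values were -0.084 for Jun, 0.075 for Akt2 and -0.047 for Usp9x. Akt2 was also at 0.079 without knockout replicate 3, and Usp9x was at -0.23 without wild-type replicate 3. Leaving out wild-type replicate 4 gave -0.37 for Jun and 0.19 for Akt2. Over these 7 lists, 84 of 95 genes were measured, 34 above 0 and 50 below, 0 passed the adjusted threshold and 1 (Bcl2l2) had groups that did not overlap, beside the 1.93% of all genes given above.

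**Figure D5:**
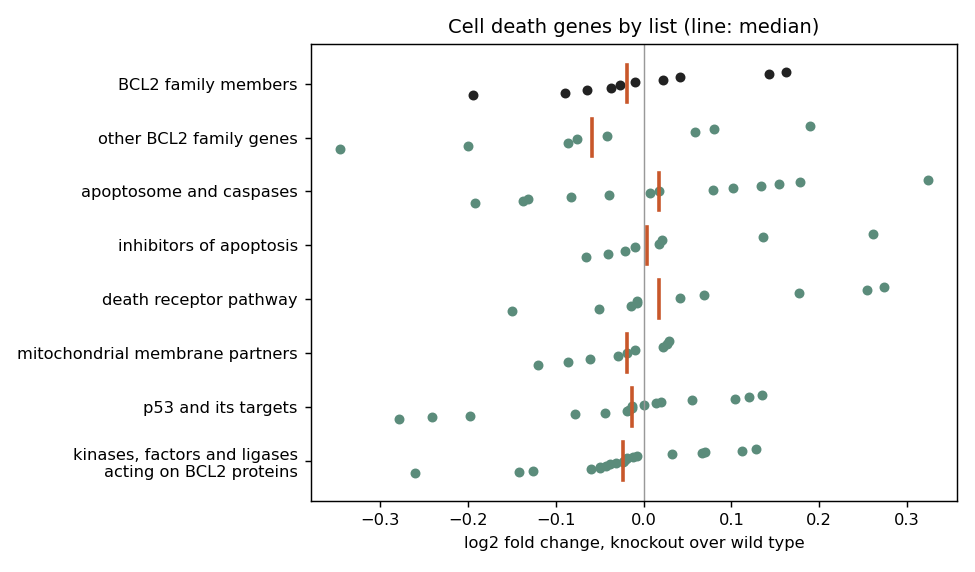
Log2 fold change, knockout over wild type, of every measured gene of the 10 members (black) and of the 7 lists of other cell death genes (green), with an orange line at each median. All medians lie between -0.059 and 0.017, and the gene farthest below 0 is Hrk at -0.35.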

How the data were processed

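Per the labels' protocols, each library was made from the poly(A) RNA of a single striatum with a kit that keeps the strand. The authors deposited whole-number read counts per Ensembl gene, naming bcl2fastq 2.17.1.14 and mm10 (per the submitters' processing notes). Aligner, counter and strand setting: not given in the sources used here. Symbols and exon lengths came from GENCODE M21 (GRCm38), which matched 31292 of 31417 identifiers. The count test was that of edgeR 4.0.16 (R 4.3.3): filterByExpr (minimum count 10), TMM scaling and a robust quasi-likelihood fit of genotype over 8 libraries, with Benjamini-Hochberg adjustment over 16511 genes and a threshold of 0.05. The method was tested on simulated data. RPKM divides TMM-scaled CPM by the union of exons, and log2 CPM for correlations had a prior count of 2, all computed here from the deposited counts. In 12 pairs of libraries of 1 genotype, chi-square per degree of freedom was 6.60 or more, so none was a copy. PCR copies are not independent molecules, so depth covers counting error only.

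The members and lists were chosen with earlier results of these data known. The marker lists set beside Bcl2, Bcl2l1 and Hrk were picked from 11 such lists. All 10 members are named, and up to 3 genes of each of 7 pathway lists with the smallest p, with those below the filter, except that 1 gene is not reported here; Bcl2l2 and genes given for their level or their lack of overlap were chosen after their values were seen. Alternatives were upper-quartile and DESeq2 1.42.0 scaling, other filters, the DESeq2 Wald test, limma-voom with sample quality weights (limma 3.58.1), the replicate number as a block and leaving out each library.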

Additional observations from a re-analysis of the deposited data

Results flagged for a closer look

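Checks for a library far from its group were made over 20 groups, the 10 members in each genotype, and chance flags about 1 in 20. Bcl2l1 was at 120.9 CPM in wild-type replicate 2, while the other wild-type libraries lay between 109.7 and 110.1 CPM, and the gap was 0.964 of the range of the group. Bak1 was at 11.03 CPM in knockout replicate 1, while the other knockout libraries lay between 9.66 and 9.84 CPM, and the gap was 0.869 of the range.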

How the results depend on the processing

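Over 16 alternative settings, 0 of the 10 members passed an adjusted p of 0.05 in any. Bcl2, Mcl1, Bcl2l11 and Bbc3 kept their direction in all 16, and 14 of 160 values of the members changed sign, each in a fit that left out 1 library. Leaving out each library in turn gave ranges on the log2 scale of -0.067 to 0.026 for Bcl2l1, -0.11 to 0.014 for Bax, -0.016 to 0.087 for Bak1, -0.065 to 0.018 for Bid, -0.018 to 0.087 for Bad, -0.21 to 0.011 for Pmaip1, -0.11 to 0.0071 for Birc6 and -0.15 to 0.40 for Naip6. Naip6 was also at -0.20 with limma-voom and sample quality weights and at -0.26 without replicate 4 of both genotypes, a setting chosen after seeing the data; the cause was not tested. Naip6 has no value with the filter of 1 CPM in 4 libraries, which removed it. The count of genes past the threshold, 1 in the fit reported, was 3 with the DESeq2 Wald test (Dclk3, Malat1 and 1520401A03Rik), 3 without replicate 4 of both genotypes (Dclk3, Gpr101 and Gm26917), and 1 to 2 without single libraries, with 1520401A03Rik added without wild-type replicate 1; these genes were chosen after their values were seen. With no filter on low counts Dclk3 had a log2 fold change of -2.07 and an adjusted p of 0.0647 (edgeR quasi-likelihood), and Malat1 was the 1 gene called. Same-numbered libraries correlated at 0.037, 0.021, 0.053 and -0.276 in their deviations from the genotype means. Of 4 wild-type libraries, 1 correlated best with its own number. With 4 pairs, these values cannot decide whether the numbers pair the mice. With the replicate number as a block, 1 gene and 0 members passed.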
